A study of Mus musculus with 65 samples.

Results

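The cytoplasmic ribosomal protein genes of the mouse were examined for peaks of 2 DNA-binding factors, CTCF and TAL1, at their promoters. The genes were taken by symbol from the protein-coding genes of the GENCODE M21 basic annotation of GRCm38 (mm10): names made of Rpl or Rps and a number, together with Rplp0, Rplp1, Rplp2 and Rpsa. Pseudogenes, the Rps6k kinases and paralogs whose names end in l or l1 were left out. The rule gave 77 of 21938 protein-coding genes, 46 for the large and 31 for the small ribosomal subunit. They lie on 19 chromosomes, 14 of them on chromosome 7. A gene was counted as called in a library when a peak of that library overlapped the 2 kb on either side of any of its transcript starts. The rule itself uses symbols and no measured value.

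The peak lists came from 53 chromatin immunoprecipitation (ChIP-seq) libraries, 34 of CTCF and 19 of TAL1. G1E-ER4+E2 cells gave 23 CTCF and all 19 TAL1 libraries. These are mouse erythroid progenitor cells derived from embryonic stem cells, a cultured line that was treated with β-estradiol to start erythroid maturation, and all its libraries share that treatment. The line expresses GATA1 fused to the estrogen receptor ligand-binding domain in place of its own GATA1, so it models maturation after restored GATA1. The other 11 CTCF libraries came from populations sorted from the bone marrow of male C57BL/6 mice 5 to 8 weeks old: LSK, CMP, GMP, MEP, CFUE, ERY, CFUMk and iMk. LSK is the stem and progenitor fraction, CMP, GMP and MEP are myeloid progenitors, CFUE and ERY are erythroid cells, and CFUMk and iMk belong to the megakaryocyte lineage. The study sheared chromatin to different average lengths and graded every library by eye as Pass, Low pass or Fail. Some libraries were retrospective, and the paper says that their conditions varied, including the fixation method. These conditions were not separated here. The labels do not say whether libraries of a group came from separate cultures or animals, so the spread between libraries may be technical. Peak lists hold no expression values, so the labelled cell types could not be checked against markers.

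Ribosomal proteins form the protein part of the ribosome, and one copy of nearly every one is needed per particle. Their promoters are active in almost every cell, are mostly CpG-rich, and start transcription at a pyrimidine tract that continues into the mRNA. Red cell precursors depend on high ribosome output, and heterozygous loss of several of these genes causes Diamond-Blackfan anaemia, a failure of red cell production. CTCF is a zinc-finger protein that binds a long DNA motif and, with cohesin, marks the anchors of chromatin loops. TAL1, a helix-loop-helix transcription factor of blood cells, binds beside GATA1 in erythroid cells, often at the sequence AGATAA.

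CTCF peaks were called at the ribosomal protein promoters of the cell line more often than at those of other genes. The 14 Pass libraries called between 15 and 28 of the 77 genes, with a median of 21. The mean share was 27.6% ± 4.39 (SD, n = 14), beside 9.21% ± 1.74 of the 21861 other protein-coding genes. The share of ribosomal protein genes was above that of the other genes in 14 of 14 libraries, by a ratio between 2.69 and 3.74. The lowest count, 15 genes, came from the library of 228 bp, which had the shortest Pass list of the line with 10655 peaks. The highest, 28 genes, came from the library of 220 bp with 21986 peaks, the longest list. The shortest chromatin of a Pass library, 199 bp, gave 19 genes and the longest, 302 bp, gave 22. The ranges of the ribosomal protein share, 19.5% to 36.4%, and of the other genes, 7.24% to 13.3%, did not overlap. For the library with the lowest share the 95% Wilson interval ran from 12.2% to 29.7%. Such intervals cover counting error only.

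**Figure D1:**
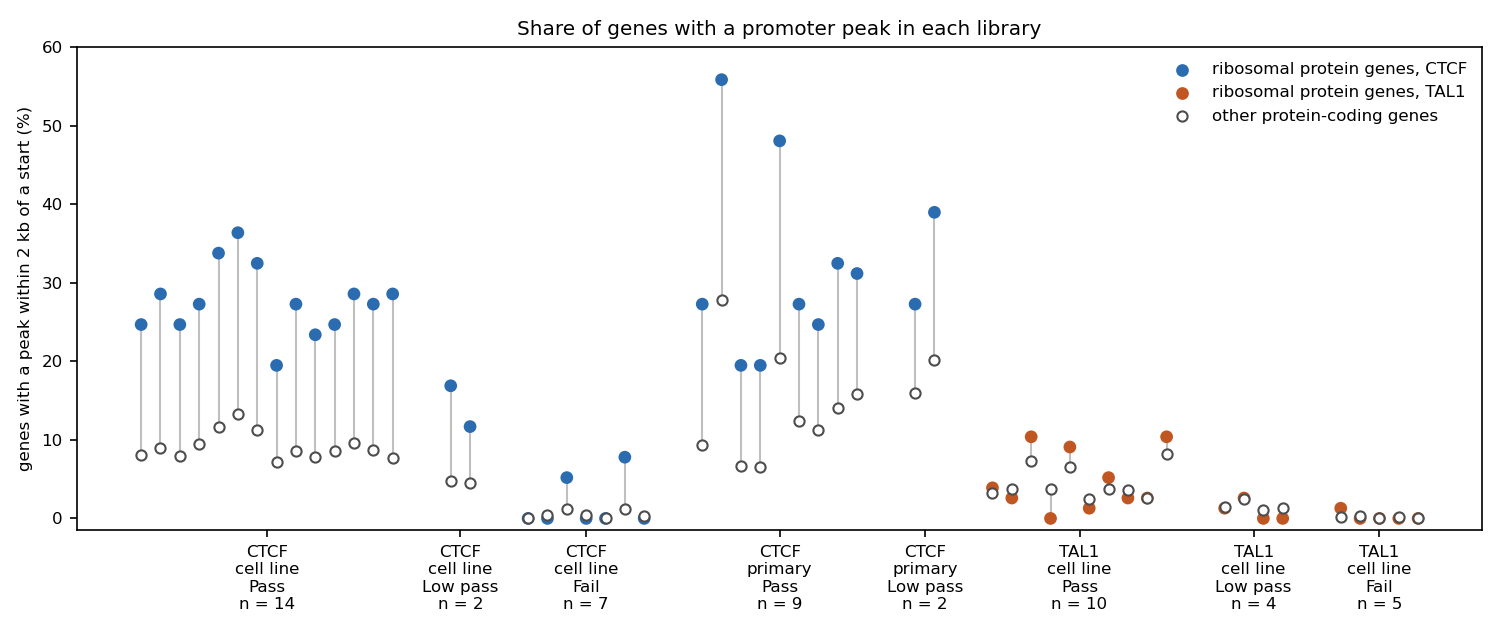
Percent of ribosomal protein genes (filled points, blue for CTCF and orange for TAL1) and of the other protein-coding genes (open points) with a peak within 2 kb of a transcript start, in each of 53 libraries. A grey line joins both values of a library; libraries of the cell line are ordered by chromatin length within a group and those of primary cells by cell type, and the filled points lie above the open ones in all 14 CTCF Pass libraries of the cell line and all 9 of primary cells.

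Promoter composition set part of the comparison group apart, so the share was also read against promoters with a CpG observed to expected ratio of at least 0.6 in the 500 bp on either side of the start. Of the ribosomal protein genes 72 of 77 (93.5%) met that value, beside 47.3% of the other genes. The other CpG-rich genes carried a CTCF peak in 11.9% ± 2.28 (SD, n = 14) of cases in the Pass libraries of the line. Genes with related functions lay lower than the ribosomal protein genes. The 78 mitochondrial ribosomal protein genes had a mean of 15.3% ± 1.98, the 39 proteasome subunit genes 16.3% ± 4.22 and the 68 translation factor genes of the Eif and Eef families 10.3% ± 3.56 over the same 14 libraries. The 294 ribosomal protein pseudogenes named with -ps had 3.13% ± 0.78. Such pseudogenes mostly arise as processed copies without the parent promoter, which was not checked for these 294. These shares are descriptions, and no test was run over the lists.

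Among ribosomal protein genes, those with a neighbouring start had the lower share, unlike other genes. Another protein-coding gene started within 4 kb of 24 of the 77 ribosomal protein genes (31.2%, beside 17.4% of other genes). In the 53 genes without such a neighbour the CTCF share was 33.3% ± 5.05 (SD, n = 14), beside 8.40% ± 1.58 of the other genes without one. In the 24 genes with a neighbour it was 15.2% ± 4.51, beside 13.0% ± 2.51 of the other genes with one. When each peak was given only to the gene with the nearest start, the ribosomal protein share was 27.6% and that of the other genes 8.41%.

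The same promoters recurred from library to library. In the Pass libraries of the line 30 of 77 genes (39.0%) had a CTCF peak in at least 1 library, beside 15.4% of the other genes. A peak in at least 50% of the 14 libraries was found at 23 genes (29.9%). Over all 21938 protein-coding genes 9.38% met the same rule, and 11.9% of the other CpG-rich genes did. Of the ribosomal protein genes 9 (11.7%) were called in all 14 libraries, beside 4.37% of other genes. The remaining 47 were called in none. The 23 recurrent genes comprised 13 of the large and 10 of the small subunit. The share was 26.9% ± 3.96 (SD, n = 14) in the large subunit genes and 28.8% ± 5.86 in the small subunit genes, a difference within the SD over libraries. Of the 18 genes listed here as mutated in Diamond-Blackfan anaemia, 7 were recurrent, among them Rps10, Rps29, Rpl5, Rpl11, Rpl26 and Rpl27. Of the other 59, 16 were.

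**Figure D2:**
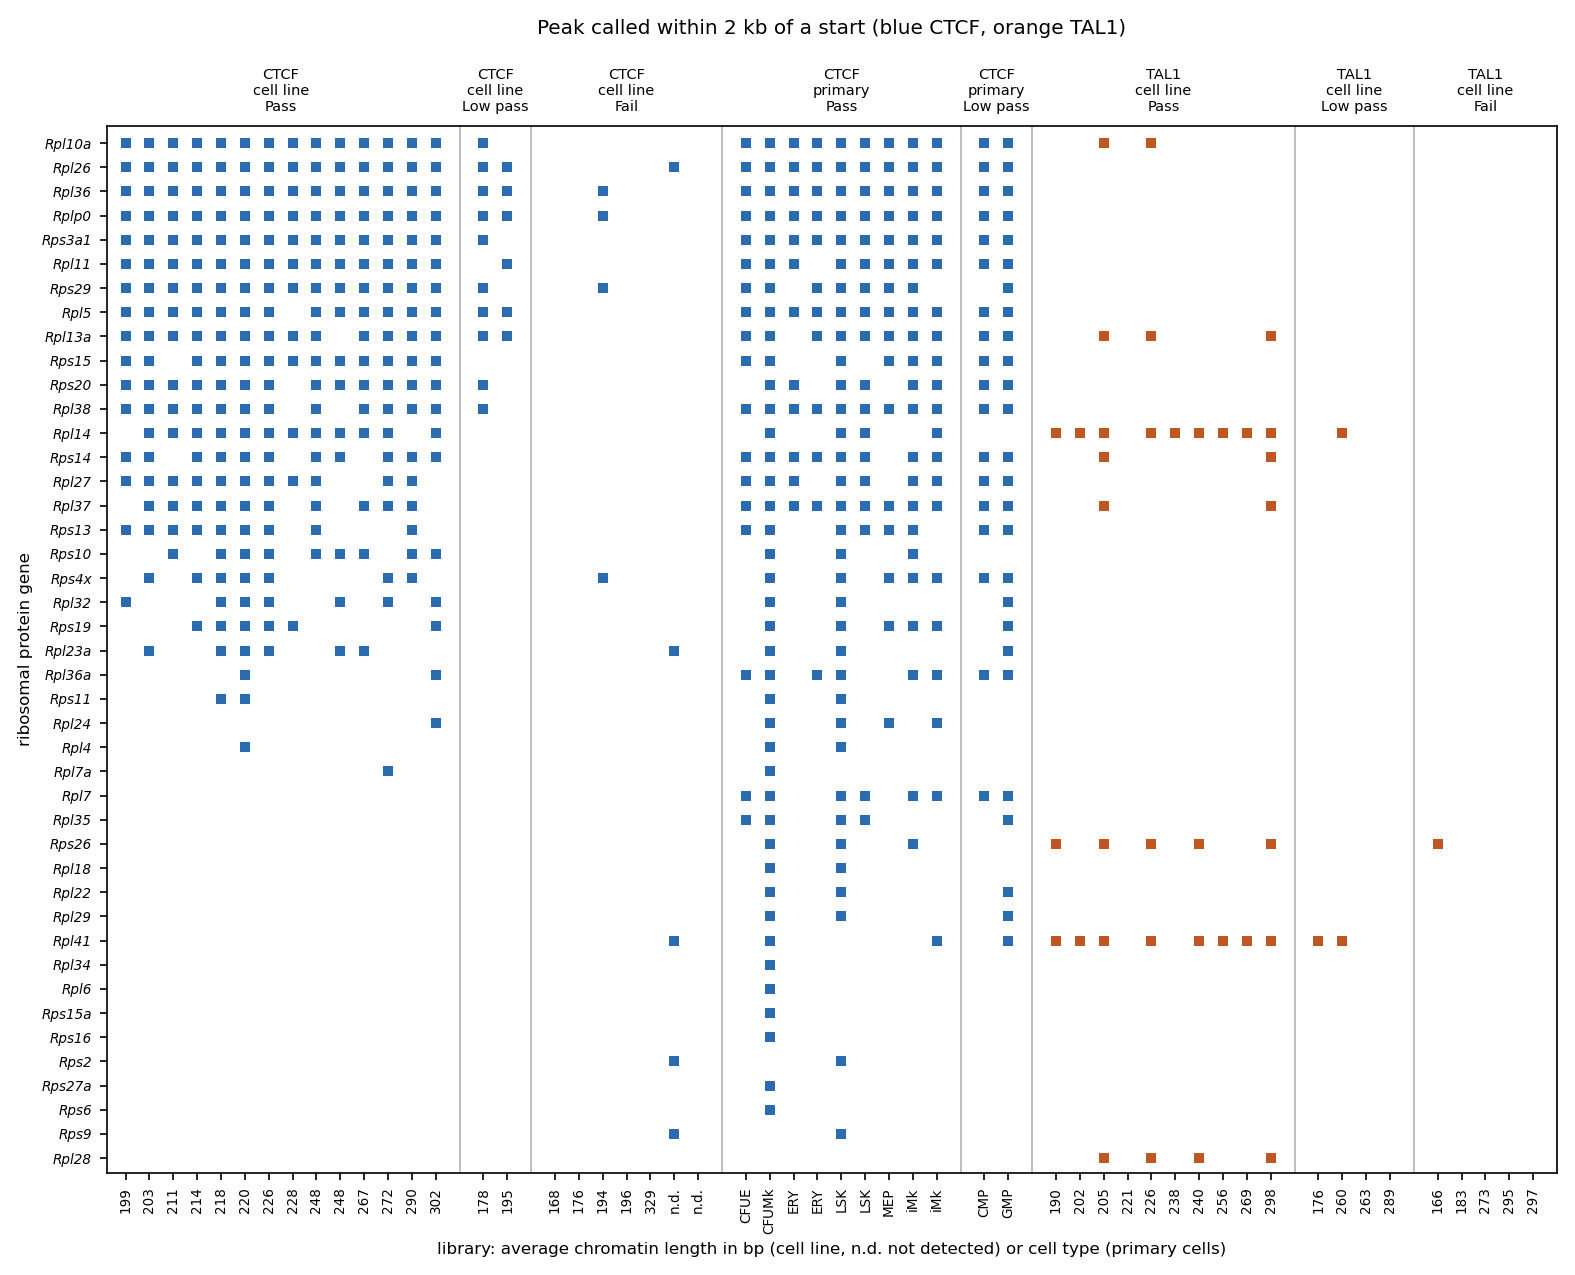
Peak calls (1 square per call, blue for CTCF and orange for TAL1) at 43 of the 46 ribosomal protein genes called in at least 1 Pass library, in rows, across 53 libraries, in columns grouped by factor, source and assessment. Columns of the cell line are labelled with the average chromatin length in bp and those of primary cells with the cell type; the upper rows are filled across both sets of CTCF Pass libraries, while TAL1 squares gather at Rpl14, Rpl41 and Rps26.

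In the 9 Pass libraries of primary cells the counts ran from 15 to 43 of 77 genes with a median of 21. The mean share was 31.7% ± 12.4 (SD, n = 9), beside 13.8% ± 6.84 of other genes. It was above that of other genes in 9 of 9 libraries. The other CpG-rich genes had 18.9% ± 9.75. Mitochondrial ribosomal protein genes had 19.9% ± 10.3, proteasome subunit genes 18.2% ± 9.72 and translation factor genes 15.0% ± 9.21. Both ERY libraries called 15 genes (19.5%), from lists of 8284 and 6629 peaks, beside 6.69% and 6.56% of other genes. CFUE gave 21 genes (27.3%) and MEP 19 (24.7%), beside 9.39% and 11.2% of other genes. Of the 2 LSK libraries the one of 241 bp gave 21 genes and the one of 231 bp gave 37, from 18945 and 28476 peaks. These were 27.3% and 48.1%, beside 12.4% and 20.4% of other genes. The 2 iMk libraries gave 25 and 24. CFUMk gave 43 genes from 36481 peaks, the longest list of the series, and there 27.7% of the other genes were called too. The 2 Low pass libraries, CMP and GMP, gave 21 and 30. The shortest lists, of ERY, thus had the lowest counts and the longest, of CFUMk, the highest. With the strongest 6500 peaks kept in every CTCF library, the share was 16.1% ± 3.13 (n = 14) in the line and 15.7% ± 3.46 (n = 9) in primary cells, a difference within the SD over libraries. The other genes then had 4.98% ± 0.277 and 6.07% ± 0.661.

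Of the 77 genes 7 were called in all 23 CTCF Pass libraries of the line and of primary cells, among them Rpl10a, Rpl26, Rpl36, Rplp0 and Rps3a1. Of the other protein-coding genes 2.87% were. A peak in at least 50% of the 9 primary libraries was found at 23 genes, beside 12.4% of all protein-coding genes. Of the 23 recurrent genes of the line 20 (87.0%) were among these 23, which is 87.0% of either list. For other genes, 90.9% of the 2034 recurrent in the line were recurrent in primary cells, and 68.5% of the 2701 recurrent in primary cells were so in the line. Recurrent in the line alone were Rpl14, Rpl32 and Rps10, and in primary cells alone Rpl36a, Rpl7 and Rps19.

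Genes with high enrichment are described first. Fold enrichment is the value that the authors' peak caller gave over background, and it is read within a library by rank, because depth differs between libraries. Rplp0, which codes for the protein at the base of the ribosomal stalk, had a fold enrichment between 15.7 and 37.2 in the 14 Pass libraries of the line, with a median of 20.8. It ranked at a median of 9.06% from the top of the peak list. In primary cells its fold ran from 10.9 to 74.5 with a median of 27.4, and its median rank was 6.88%. Rplp0 thus stood near the top of the list in a typical library of either source.

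Rps3a1, the mouse gene of the small-subunit protein RPS3A, had a fold between 6.19 and 37.1, median 21.3, and a median rank of 8.19%. Rpl36 had a fold between 16.7 and 48.3, median 19.3, and a median rank of 10.8% in the line and 4.65% in primary cells. The ranges of Rplp0, Rps3a1 and Rpl36 overlapped one another.

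Rpl5 and Rpl11 code for 2 large-subunit proteins that travel together with an rRNA into the nascent subunit and that bind MDM2, which couples ribosome assembly to p53. Rpl5 was called in 13 of 14 libraries of the line and 9 of 9 of primary cells, with a median fold of 15.98 (11.4 to 31.7) in the line and 31.1 (14.7 to 69.4) in primary cells. Rpl11 was called in 14 of 14 and 8 of 9, with a median fold of 15.0 (10.7 to 31.7) and 17.3 (11.02 to 50.1). Rpl26, another Diamond-Blackfan anaemia gene, was called in all of them with a median fold of 18.4 (9.50 to 41.9) in the line and 36.0 (13.7 to 68.8) in primary cells. The median ranks of Rpl5, Rpl11 and Rpl26 in the line were 28.5%, 22.1% and 13.8%.

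Weaker in the line but recurrent were Rpl10a, Rpl13a and Rpl38, and the folds given here are those of the line. In primary cells their median ranks were 17.5%, 35.4% and 17.4%, beside 32.9% for Rpl11. Rpl10a and Rpl38 thus ranked above Rpl11 there. Rpl10a, a protein of the mobile stalk beside the exit site, was called in every CTCF Pass library although its median rank in the line was 45.4%, with a fold between 5.35 and 23.6 and a median of 12.9. Rpl13a, known also for a role in silencing inflammatory mRNAs, was called in 13 of 14 and 8 of 9 with a median fold of 13.1 (9.49 to 32.0). Rpl38, whose loss in mice changes the axial skeleton, was called in 12 of 14 and 9 of 9 with a median fold of 11.5 (6.39 to 19.8). The remaining 14 recurrent genes, not given in full, were called in 0 to 14 libraries of the line and 2 to 9 of primary cells. Among them Rps29 was called in 14 of 14 and Rps15 and Rps20 in 13 of 14. Just inside the limit of 50% in the line were Rpl32 and Rps4x with 7 of 14 libraries, and just outside it Rps19 and Rpl23a with 6.

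**Figure D3:**
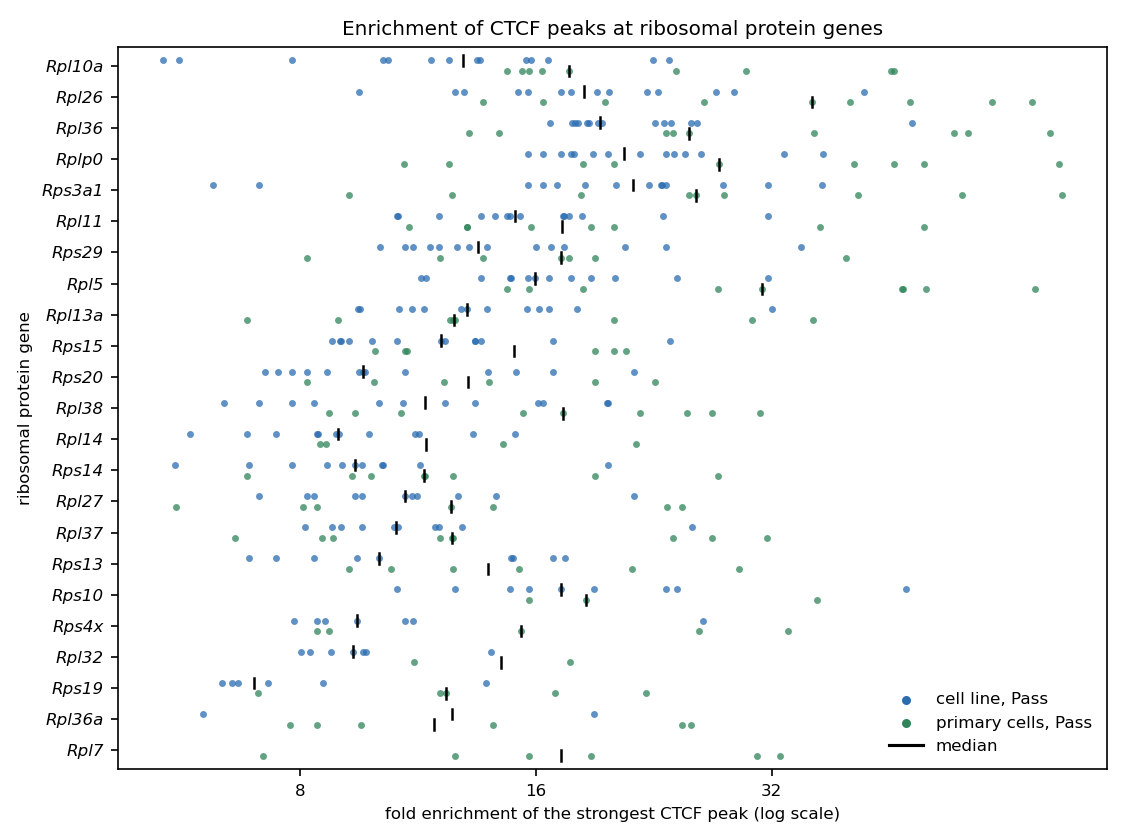
Fold enrichment of the strongest promoter CTCF peak at 23 of the 26 ribosomal protein genes recurrent in either source, on a log axis, with 1 point for each Pass library that called the gene (blue for the cell line, green for primary cells) and a black bar at the median. Rplp0, Rps3a1 and Rpl36 have medians between 19.3 and 21.3 in the line, and most genes span more than a doubling between libraries.

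The peaks sat close to the start and on its upstream side. The middle of the strongest promoter peak lay a median of 195 bp ± 51.5 (mean of library medians ± SD, n = 14) from the nearest start at ribosomal protein genes in the line, beside 724 bp ± 63.5 at other genes. The library medians ran from 141 to 329 bp and from 629 to 867 bp, so they did not overlap. At the other CpG-rich genes the distance was 583 bp ± 85.2. In primary cells the values were 189 bp ± 81.0 for ribosomal protein genes, 515 bp ± 86.0 for other genes and 391 bp ± 83.8 for the CpG-rich ones (n = 9). The middle lay upstream of the start at 94.9% ± 4.31 of called ribosomal protein genes in the line and at 67.6% ± 1.14 of other called genes. The peaks themselves were of like width and strength: 681 bp ± 120 beside 689 bp ± 122, and a median rank of 36.7% ± 10.8 beside 41.1% ± 2.31.

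For each recurrent gene the stretch covered by the most libraries was taken as its site. The middle of the site lay upstream of the start at 22 of 23 genes in the line, with a median of -145 bp, and within 200 bp of the start at 12. No site was nearer to the start of another protein-coding gene than to the ribosomal protein gene. The site of Rplp0 was chr5:115559145-115559562, centred at -114 bp from its start. The site of Rps3a1 was chr3:86142591-86142964, at -75 bp. Sites far upstream were those of Rpl14 (-1236 bp), Rps13 (-2068 bp) and Rps10 (-2240 bp). Rps20 alone had its most covered stretch downstream, at 1443 bp. Its strongest promoter peak lay between -174 and -79 bp in 7 of the 13 line libraries that called it and between 1429 and 1517 bp in the other 6, whereas all 6 primary libraries that called it had the downstream one.

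**Figure D4:**
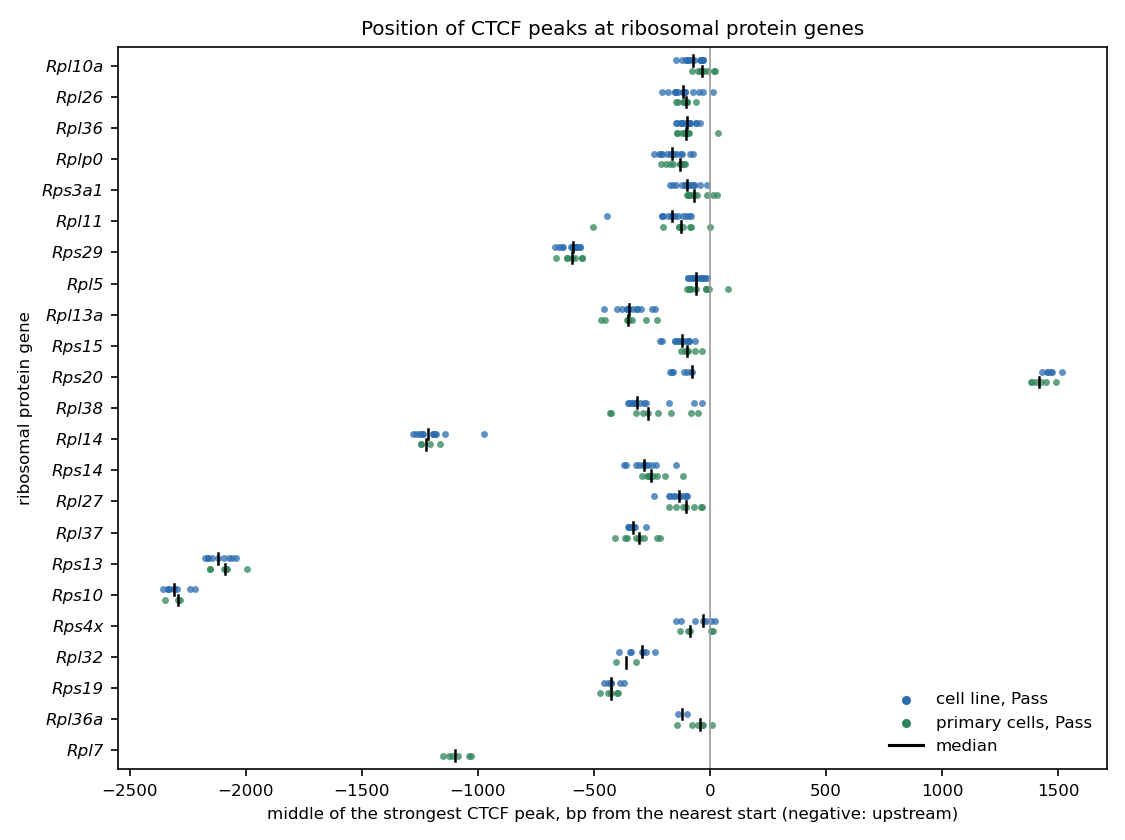
Position of the middle of the strongest promoter CTCF peak relative to the nearest transcript start, in bp with negative values upstream, at 23 of the 26 recurrent ribosomal protein genes, with 1 point for each Pass library that called the gene (blue for the cell line, green for primary cells) and a black bar at the median. Most points lie between the start and 400 bp upstream, with Rps29, Rpl14, Rpl7, Rps13 and Rps10 farther upstream and Rps20 split between both sides.

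A CTCF motif of 20 bp was learned from the 2000 strongest peaks outside promoters in the cell-line library with the most peaks, with no sequence given beforehand. Its consensus, with N where no base reached 60%, was NNCCACNAGGGGGCNNNNNN, and 79.7% of those training peaks held a match at a random rate of 1e-05 per position. The motif was then searched in the 150 bp on either side of each peak middle. A match was found in 44.8% ± 4.82 (SD, n = 14) of CTCF peaks at ribosomal protein genes, in 64.8% ± 3.40 of CTCF peaks at other promoters and in 82.0% ± 4.03 of peaks away from promoters, all in the line. The same length of sequence 500 to 800 bp beside the peaks held it in 8.81% ± 3.0, 3.20% ± 0.477 and 3.06% ± 0.703. The library ranges of ribosomal protein and other promoter peaks did not overlap, but the libraries share most of their sites, so no test was run. In primary cells the shares were 43.9% ± 5.19, 57.1% ± 7.1 and 75.3% ± 9.84 (n = 9). TAL1 promoter peaks held the motif in 1.79% ± 0.622 (n = 10) of cases. At the looser random rate of 0.0001, chosen after these values were seen, the shares in the line were 74.3% ± 5.97 at ribosomal protein genes and 86.3% ± 2.72 at other promoters, with 13.2% ± 5.25 and 11.2% ± 1.14 beside the peaks.

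**Figure D5:**
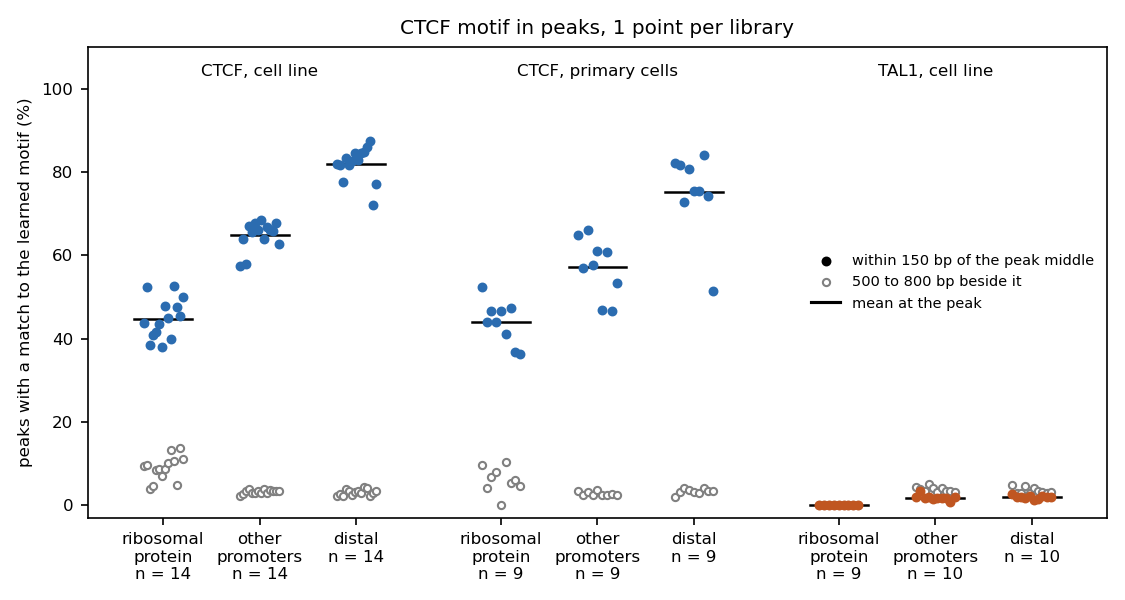
Percent of peaks with a match to the learned CTCF motif within 150 bp of the peak middle (filled points, 1 per library, with a black bar at the mean) and 500 to 800 bp beside it (open points), for peaks at ribosomal protein genes, at other promoters and away from promoters. In the cell line the filled points average 44.8%, 64.8% and 82.0% from left to right, while all TAL1 points stay near 0.

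By gene, 11 of the 23 sites of the line held a match, and 19 did at the looser rate. Rpl10a, Rpl13a and Rps14 held none at either rate. The matches within 200 bp of a start numbered 5, and they are shown here because they place the motif close to the start. They are given 5′ to 3′ on the strand of the motif, which is that of the gene in all 5, with the 20 bases of the motif in capitals:
Rpl36, chr17:56613326-56613345, at -81 bp: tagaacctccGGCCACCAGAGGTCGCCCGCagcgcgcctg
Rplp0, chr5:115559288-115559307, at -170 bp: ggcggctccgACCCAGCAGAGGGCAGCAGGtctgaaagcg
Rpl5, chr5:107900463-107900482, at -30 bp: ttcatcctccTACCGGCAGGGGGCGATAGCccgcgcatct
Rpl26, chr11:68901463-68901482, at -111 bp: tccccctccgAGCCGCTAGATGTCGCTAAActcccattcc
Rps4x, chrX:102189430-102189449, at -45 bp: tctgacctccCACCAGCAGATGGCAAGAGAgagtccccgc
The coordinates are of GRCm38 and cover the capitals only, and the distance is that of the motif from the start. All 5 lie outside protein-coding transcripts. Their scores were 19.4, 18.6, 15.7, 13.5 and 15.997 bits in this order, against a threshold of 12.4 bits.

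Rps3a1 had peaks about as strong as Rplp0 and Rpl36, with a median fold in the line of 21.3 beside 20.8 and 19.3, but no match at the stricter rate. The 200 bases before the start are therefore shown for these 3 genes, 5′ to 3′ on the strand of the gene from GRCm38, with the 20 bases that score highest for the motif in capitals. The sequences end at the base before the annotated start:
Rplp0, chr5:115559267-115559466, plus strand: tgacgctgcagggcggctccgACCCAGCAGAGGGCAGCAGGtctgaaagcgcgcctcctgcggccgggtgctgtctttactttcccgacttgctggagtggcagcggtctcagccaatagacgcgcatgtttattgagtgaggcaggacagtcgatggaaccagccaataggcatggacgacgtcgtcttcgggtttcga
Rpl36, chr17:56613216-56613415, plus strand: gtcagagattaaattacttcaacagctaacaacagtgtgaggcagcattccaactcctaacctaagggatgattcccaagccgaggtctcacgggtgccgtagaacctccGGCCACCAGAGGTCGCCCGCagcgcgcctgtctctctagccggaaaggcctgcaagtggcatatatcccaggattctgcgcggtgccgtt
Rps3a1, chr3:86142703-86142902, minus strand: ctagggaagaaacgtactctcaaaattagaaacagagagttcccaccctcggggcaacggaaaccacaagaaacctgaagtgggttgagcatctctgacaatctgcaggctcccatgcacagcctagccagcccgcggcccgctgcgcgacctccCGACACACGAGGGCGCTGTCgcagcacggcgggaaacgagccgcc
The best stretch of Rps3a1 scored 11.1 bits and ended 26 bases before the start. It passed the looser threshold of 6.79 bits, and in all 3 genes the stretch lay on the strand of the gene.

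At 3 of the 11 sites with a match, Rplp0, Rpl14 and Rpl38, the motif lay in bases that the RefSeq assembly soft-masks as repeats, and at Rps13 45% of its bases did. Among CTCF peaks with a match at other promoters 16.1% ± 2.93 (SD, n = 14) had the motif in masked bases. The sites of Rpl14, Rpl38 and Rps13 are shown because they resemble one another along the flanks as well as in the motif, given on the strand of the motif with the 20 bases of the motif in capitals:
Rpl14, chr9:120570168-120570187, at -1267 bp: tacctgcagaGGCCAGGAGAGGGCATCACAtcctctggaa
Rpl38, chr11:114668079-114668098, at -436 bp: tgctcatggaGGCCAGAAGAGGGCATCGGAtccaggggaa
Rps13, chr7:116336324-116336343, at -2138 bp: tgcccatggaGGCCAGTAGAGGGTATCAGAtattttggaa
Of the 40 bases shown, 28 were identical between Rpl14 and Rpl38, 29 between Rpl14 and Rps13 and 31 between Rpl38 and Rps13. The other 42 pairs among the 10 sites outside exons shared 12 to 23 bases with a median of 17. Short interspersed repeats of the mouse B2 family are known to carry CTCF motifs. The class of the repeats at these 3 genes was not looked up. The 3 sites are those of the line. In primary cells the most covered stretch of Rpl38, chr11:114668132-114668509, held another match. It lay at -59 bp, scored 15.7 bits and had 95% of its bases masked.

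Other short motifs were counted in RefSeq promoter sequences of GRCm38.p6, from 250 bases before to 50 after each start, which matched 57 of the 77 genes by symbol and 16465 other protein-coding genes. Both strands were searched and a gene counted when any of its promoters held the letters. CCGGAAG, the core recognised by ETS factors, was in 24 of 57 ribosomal protein genes (42.1%) and in 13.3% of the others. A start at C followed by 4 pyrimidines, the pattern of a 5′ terminal oligopyrimidine tract, was annotated at 13 (22.8%) and at 2.64% of the others. GGGCGG, read by SP1, was in 61.4% and 51.0%. AAGATGGC, read by YY1, was in 8.77% and 3.62%. AGATAA was in 7.02% and 11.01%, CANNTG in 52.6% and 71.9%, and TATAAA in 10.53% and 14.3%. The learned CTCF motif was in 5 of 57 (8.77%) and in 4.04%. These 5 all came from the 15 matched genes with a recurrent CTCF peak, and none of the 37 matched genes without a CTCF peak in a Pass cell-line library held it. The motif was learned outside promoters, but in a cell-line Pass library that also helped to define which genes were recurrent. The split is therefore a description and no independent evidence. With 4.04% of the other genes holding the motif, few matches would be expected among 37 genes, so finding none there says little.

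CTCF and TAL1 were compared gene by gene in the Pass libraries of the line, to ask which ribosomal protein promoters were called for one factor more often than for the other. Fisher's exact test, two-sided, compared the number of libraries with a peak, 14 of CTCF against 10 of TAL1, and p-values were adjusted by the Benjamini-Hochberg method over 4850 protein-coding genes with a peak in at least 1 of these libraries. CTCF was called more often at 23 of the 33 ribosomal protein genes tested (69.7%), beside 40.2% of all genes tested. TAL1 was called more often at 3 (9.09%), Rpl28, Rpl41 and Rps26, beside 16.8%. A gene entered the test through a peak of either factor. These shares of tested genes therefore restate how often each factor was called and are no separate evidence. At Rpl36, Rpl11, Rpl26, Rplp0, Rps29 and Rps3a1 CTCF was called in 14 of 14 libraries and TAL1 in 0 of 10, with an adjusted p of 2.41e-06 for each by Fisher's exact test. Rpl5, Rps15 and Rps20 followed with 13 of 14 against 0 of 10 (adjusted p = 2.13e-05, Fisher's exact test). The CTCF Pass lists of the line, of 10655 to 21986 peaks, were all longer than the TAL1 Pass lists, of 2670 to 9763. With only the strongest 2500 peaks of every library the counts were 7 and 2, beside 27.7% and 28.1% of all genes tested. How many ribosomal protein genes entered that run is not given, so these counts cannot be read against the percentages. Which of the genes named above are among the 7 is not given either. At a −log10 p of at least 10, or with adjustment over all protein-coding genes, only 1 of the 3 TAL1 calls passed, that of Rpl41. Fisher's exact test, here and below, takes each library as independent. The paper sheared batches of the same cell line to varying degrees, so such p-values may overstate the evidence.

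TAL1 at ribosomal protein genes was near its level at other genes. The 10 Pass libraries called between 0 and 8 of 77 genes with a median of 2.5. The mean share was 4.81% ± 3.83 (SD, n = 10), beside 4.52% ± 2.05 of other genes and 6.25% ± 3.03 of the other CpG-rich genes, and it was above that of other genes in 5 of 10 libraries. A library of 221 bp has an antibody label that names CTCF while its title names TAL1. It held the learned CTCF motif in 1.83% of promoter and 2.67% of distal peaks, beside 0.833% to 3.33% and 1.33% to 2.17% in the other 9 TAL1 Pass libraries, and far below the ranges of the CTCF Pass libraries of the line (57.5% to 68.5% and 72.0% to 87.3%). It called 0 of 77 genes, where a limit of 3 counts allows a share of up to 3.90% and the Wilson interval one of up to 4.75%. Without it the means were 5.34% and 4.61%. A TAL1 peak in at least 1 Pass library was found at 9 genes (11.7%), beside 9.39% of other genes. A peak in at least 50% of them was found at 3 genes, Rpl14, Rpl41 and Rps26 (3.90%), beside 4.06% of all protein-coding genes.

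Rpl14, a large-subunit gene, had TAL1 in 9 of 10 and CTCF in 12 of 14 Pass libraries of the line and did not differ by the test (adjusted p = 1, Fisher's exact test). The 2 factors did not share a site. The TAL1 stretch, chr9:120568841-120569461, was centred at -2293 bp from the start, and the CTCF site, chr9:120569975-120570441, at -1236 bp. TAL1 had a median fold of 17.6 there (13.2 to 40.2) and a median rank of 26.5%. With windows of 1 kb the TAL1 calls fell away and the difference became 78.6 percentage points towards CTCF (adjusted p = 0.0004, Fisher's exact test). Rpl41, which codes for the shortest ribosomal protein, had TAL1 in 8 of 10 and CTCF in 0 of 14 (adjusted p = 0.000199, Fisher's exact test). Its stretch, chr10:128548920-128549516, was centred at -56 bp from one of its starts, with a median fold of 14.3 (7.41 to 35.8). Rps26, a Diamond-Blackfan anaemia gene whose protein lines the path by which mRNA leaves the small subunit, had TAL1 in 5 of 10 and CTCF in 0 of 14 (adjusted p = 0.0124, Fisher's exact test). Its stretch was chr10:128627462-128627998, at -983 bp.

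The letters AGATAA were present within 150 bp of the middle of 7 of the 9 TAL1 stretches at ribosomal protein genes, among them Rpl14 and Rps26 but not Rpl41. Over all TAL1 promoter peaks 45.9% ± 1.78 (SD, n = 10) held them, beside 12.8% ± 0.569 of sequence 500 to 800 bp beside these peaks and 9.86% ± 0.604 (n = 14) of CTCF promoter peaks. The stretches of 60 bases around them are shown for both genes because they are the recurrent TAL1 sites with this motif, 5′ to 3′ on the strand that holds AGATAA, in capitals:
Rpl14, chr9:120569160-120569219: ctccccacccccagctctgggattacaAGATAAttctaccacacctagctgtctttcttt
Rps26, chr10:128627670-128627729: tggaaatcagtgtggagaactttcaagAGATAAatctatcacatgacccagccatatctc

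CTCF in primary cells was set against the line by the same test, with 9 and 14 Pass libraries and 6852 genes tested, to ask which promoters differed between both sources. Of 45 ribosomal protein genes tested, 1 was called more often in primary cells (2.22%), beside 7.41% of all genes tested. It was Rpl7, with 6 of 9 against 0 of 14 libraries (adjusted p = 0.0186, Fisher's exact test), seen in CFUE, CFUMk, LSK and iMk. Its site, chr1:16105502-16105992, was centred at -1085 bp from the start of Rpl7 and 27 bp from a start of Rdh10, a retinol dehydrogenase gene. The call did not pass at a −log10 p of at least 10, with equal peak numbers, or with adjustment over all protein-coding genes. None of the 45 was called more often in the line, beside 0.248% of all genes tested, and none reached an unadjusted p under 0.05 in that direction by Fisher's exact test. Genes called in a single primary library numbered 9, of which 7 (Rpl34, Rpl6, Rpl7a, Rps15a, Rps16, Rps27a and Rps6) were in CFUMk, the library with the longest list, and 2 (Rps2 and Rps9) in the LSK library of 231 bp.

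The grades were given by eye from the peaks visible in signal tracks, so a test of peak calls between grades partly restates the grading and is given as a description. The 2 Low pass CTCF libraries of the line called 13 genes at 178 bp and 9 at 195 bp. These were 16.9% and 11.7% of the ribosomal protein genes, beside 4.74% and 4.53% of other genes, and the ratios of 3.56 and 2.58 lay near those of the Pass libraries. Rpl13a, Rpl26, Rpl36, Rpl5 and Rplp0 were among those called in both. Of 7 Fail libraries 5 called none of the 77 genes, beside 0.0366% to 0.435% of other genes. A count of 0 allows a share of up to 3.90% by the limit of 3 counts and of 4.75% by the Wilson interval. The Fail library of 194 bp called Rpl36, Rplp0, Rps29 and Rps4x (5.19%), beside 1.21% of other genes. A Fail library of undetected chromatin length, with 17343 peaks, called 6 genes (7.79%, Wilson 3.62% to 15.98%), beside 1.18% of other genes. Of these, Rpl26 and Rpl23a were called in Pass libraries of the line, whereas Rpl41, Rps18, Rps2 and Rps9 were called in none of them. The paper reports no signal in the samples with the fewest cells of a low-input CTCF pilot in this line. The labels do not say whether the library with 17343 peaks is among them. By Fisher's exact test on 14 Pass against 9 Low pass and Fail libraries, with adjustment over 3734 genes, 22 of the 34 ribosomal protein genes tested (64.7%) were called more often in Pass libraries, beside 53.3% of all genes tested. None was called less often in Pass libraries, beside 0.107%, and none reached an unadjusted p under 0.05 in that direction by the same test.

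For TAL1, the 4 Low pass libraries called 0 to 2 genes, Rpl14 and Rpl41 at 260 bp and Rpl41 at 176 bp. Their mean share was 0.974%, beside 1.58% of other genes. The 5 Fail libraries called 0 except for 1 gene, Rps26, at 166 bp. Their mean share was 0.26%, beside 0.159% of other genes. The same limit holds for the grades of the TAL1 libraries. By Fisher's exact test on 10 Pass against 9 other libraries, with adjustment over 2104 genes, Rpl14 was called more often in Pass libraries (9 of 10 against 1 of 9, adjusted p = 0.00819), the only 1 of the 9 ribosomal protein genes tested (11.1%), beside 29.8% of all genes tested. That call did not pass with windows of 1 kb, with peak middles in place of any overlap, or with adjustment over all protein-coding genes. Rpl41 had 8 of 10 against 2 of 9 (adjusted p = 0.0723, Fisher's exact test). No gene was called less often in Pass libraries, beside 0% of all genes tested, and none of the 9 reached an unadjusted p under 0.05 in that direction.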

How the data were processed

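Reads were aligned to mm10 (GRCm38) by the authors with Bowtie (1.0.0 in the submitters' notes, which also list bcl2fastq 1.8.4), and MACS was run library by library, mostly against a composite input. The deposited lists give each peak's position, fold enrichment (a ratio over background), −log10 p-value and FDR; the fold was used as deposited, the −log10 p to rank peaks within a library, and the FDR, deposited as a p-value-like fraction, was not used. Depth is not given by peak lists; they hold 193 to 36481 peaks.

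Libraries were grouped by title and the assessment in the labels; 12 of the 65 samples, unenriched inputs, hold no peak list used here. Peaks were joined to GENCODE M21 basic starts with Python 3.11.15 and pysam 0.24.0, and Fisher's exact tests (SciPy 1.17.1) were tested on simulated data first. Tests were adjusted over all protein-coding genes with a peak in at least 1 library compared, at a threshold of 0.05. Named are genes with a peak in at least 50% of Pass libraries of a source, up to 12 per factor in full; others were named after their values were seen. Counts cover all 77 genes, but a few genes are not reported here by name. The members and lists were chosen with earlier results of these data known. Other-promoter and distal motif shares rest on up to 600 peaks a library drawn with a fixed seed.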

Additional observations from a re-analysis of the deposited data

Results flagged for a closer look

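Dixon's test on groups of 4 to 10 libraries singled out the Fail TAL1 library of 166 bp among 5. It had a peak at 1 of 77 ribosomal protein genes (1.3%), at Rps26, while the other 4 Fail libraries had none. Its difference from the other genes, 1.14 percentage points, stood apart as well. Chance alone flags about 1 group in 20, and a single peak makes both values.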

How the results depend on the processing

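The difference between ribosomal protein and other genes in CTCF share was 18.4 percentage points in the line and 17.9 in primary cells. It stayed above 0 under every alternative run. Against CpG-rich promoters it was 15.8 points in the line and 12.8 in primary cells. In the line it was 13.3 points at a −log10 p of at least 10 and 24.9 without genes that share a start within 4 kb, and with equal peak numbers, chosen after seeing the data, it was 11.2 in the line and 9.66 in primary cells. Leaving out each library gave 18.1 to 18.9 and 16.7 to 18.6. For TAL1 the difference of 0.285 points lay within its SD of 2.11 and took either sign, from -0.0303 to 0.734 over left-out libraries. In the per-gene tests, the 23 genes called for CTCF over TAL1 became 7 with equal peak numbers and 21 to 24 over left-out libraries, and the 3 for TAL1 became 1 at a −log10 p of at least 10, 1 with all protein-coding genes tested and 2 to 3 over left-out libraries. Rpl7 in primary cells gave 0 calls at a −log10 p of at least 10, with all genes tested and with equal peak numbers. The TAL1 call of Rpl14 over lower-quality libraries gave 0 with windows of 1 kb, with peak middles and with all genes tested, and 1 to 2 over left-out libraries. Between CTCF and TAL1, Rpl14 reversed to 78.6 points with windows of 1 kb, 85.7 with peak middles and 2.31 without either of 2 CTCF libraries (199 and 290 bp), with a range of -14.3 to 2.31 over left-out libraries. Fewer peaks, narrower windows and more genes adjusted for are part of these alternatives themselves; other causes were not tested. No paired analysis was possible because the labels give no shared replicate numbers, and the number of cells used for each library, which varied in the study, is not in the labels and was not used as a block. Depth cannot be read from peak lists, and precision is set by the number of libraries.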
